A study of Bos taurus with 12 samples.

Results

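The genes described here build the protein import machinery of mitochondria and the carriers of its inner membrane. They were taken as all genes whose symbol in the array's annotation table starts with TOMM, TIMM or SLC25. By this rule 58 of 15216 genes with a symbol were members: 10 TOMM, 11 TIMM and 37 SLC25 genes, measured by 97 probes. The TOM complex is the entry gate in the outer membrane. Precursors with a presequence pass on to the TIM23 channel, whereas carriers are escorted by small TIM chaperones to the TIM22 channel. SLC25 proteins exchange nucleotides, phosphate, carboxylates, amino acids and cofactors across the inner membrane. The early embryo depends on mitochondria that it inherits with the egg, and most of their proteins are encoded in the nucleus and must be imported.

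The samples were bovine blastomeres of in vitro embryos at the 2-cell stage. Each embryo was split, one cell was cultured alone to day 7 and its sister was frozen and later pooled by the fate of the cultured cell. BL denotes cells whose sisters reached the blastocyst stage and 2CB denotes cells whose sisters did not divide after separation. The other arrested class bears the name 8CB, but its description in the labels speaks of arrest at 4 cells, and the name alone is used here. No treatment or genotype distinguished the classes, and RNA came from 3 pools of 15 blastomeres per class. In such pools, fewer cells with a transcript and less of it per cell cannot be told apart.

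Two-colour arrays carried BL against 2CB (6 arrays) or BL against 8CB (6 arrays), with each replicate number, 1 to 3, hybridised in both dye orientations. The deposited values are log ratios, taken as log2, with no intensities, so a level above background could not be assessed for any member. The labels do not settle which class is the numerator of a deposited ratio. Members are therefore placed on a positive or a negative side, which does not tell whether BL was higher or lower. The 2 arrays of a replicate number were averaged as deposited, because their deviations from the group means correlated at 0.30 to 0.81 across genes in 5 of 6 pairs. In the remaining pair, replicate 3 against 8CB, the correlation was -0.20. The arrays correlated between -0.03 and 0.74 over all probes within one dye orientation, and between -0.55 and 0.56 across orientations. Lists of other cells' markers were counted at an unadjusted p under 0.05. Against 2CB it was reached by 1 of 15 cumulus and granulosa genes, 1 of 11 sperm genes and 0 of 9 blood genes (all genes: 18%). Against 8CB these counts were 1, 0 and 0 (all genes: 11%). Oocyte and early embryo genes stood at a median of 0.42 against 2CB, with 9 of 12 at an unadjusted p under 0.05 (75%; all genes: 18%). Against 8CB they stood at 0.19, with 1 of 12 (8.33%; all genes: 11%). Their part in the results below was not tested.

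BL against 2CB sets the RNA of cells with blastocyst-forming sisters against that of cells with undividing sisters, before either fate is visible. The members lay on both sides of the ratio. SLC25A6, TOMM40 and SLC25A11 were furthest on the positive side, and TIMM9, TOMM70 and SLC25A31 furthest on the negative side. Limma called 0 members and 0 of all genes (percent called: 0) at an adjusted p under 0.05. At an unadjusted p under 0.05 stood 12 of 58 members (20.7%), against 18% of all genes, with 7 on the positive side (all genes: 8.54%) and 5 on the negative side (all genes: 9.48%). The members' share was thus close to the background. In 28 members (48.3%) the 3 replicates lay on one side, against 45% of all genes. Of these 28, 12 were positive throughout (20.7% of members; all genes: 24.2%) and 16 negative throughout (27.6% of members; all genes: 20.8%). A mean above 0 was found for 26 members (44.8%), against 54.2% of all genes, and the median over members was -0.02, against 0.01 over all genes. More members than genes in general were far from 0: 13 (22.4%) lay beyond 0.3 in either direction, against 12.9% of all genes, which was not tested. Against 8CB there was no such excess at that limit, with 4 members (6.9%) and 7.14% of all genes. Within 0.1 of 0, however, lay 29 members against 8CB (50%), while the share of all genes was 66.3%. Against 2CB these were 27 members (46.6%) and 57.2% of all genes. The median distance from 0 was 0.10 over members in each comparison. Over all genes it was 0.08 against 2CB and 0.06 against 8CB. These differences were not tested.

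All 12 arrays were also fitted singly, with a term for the dye and a random block for each replicate number of a comparison. This called 8 of 58 members against 2CB (13.8%) and 6.34% of all genes at an adjusted p under 0.05. These were SLC25A6, TOMM40, SLC25A11 and SLC25A22 on the positive side, and SLC25A12, SLC25A24, TIMM9 and TOMM70 on the negative side. That fit gives every gene the same correlation between swapped arrays, 0.32. With the replicate number as a fixed block across both comparisons, 0 members were called, and the count at an unadjusted p under 0.05 was 19 (32.8%; all genes in that fit: 25.9%).

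**Figure D1:**
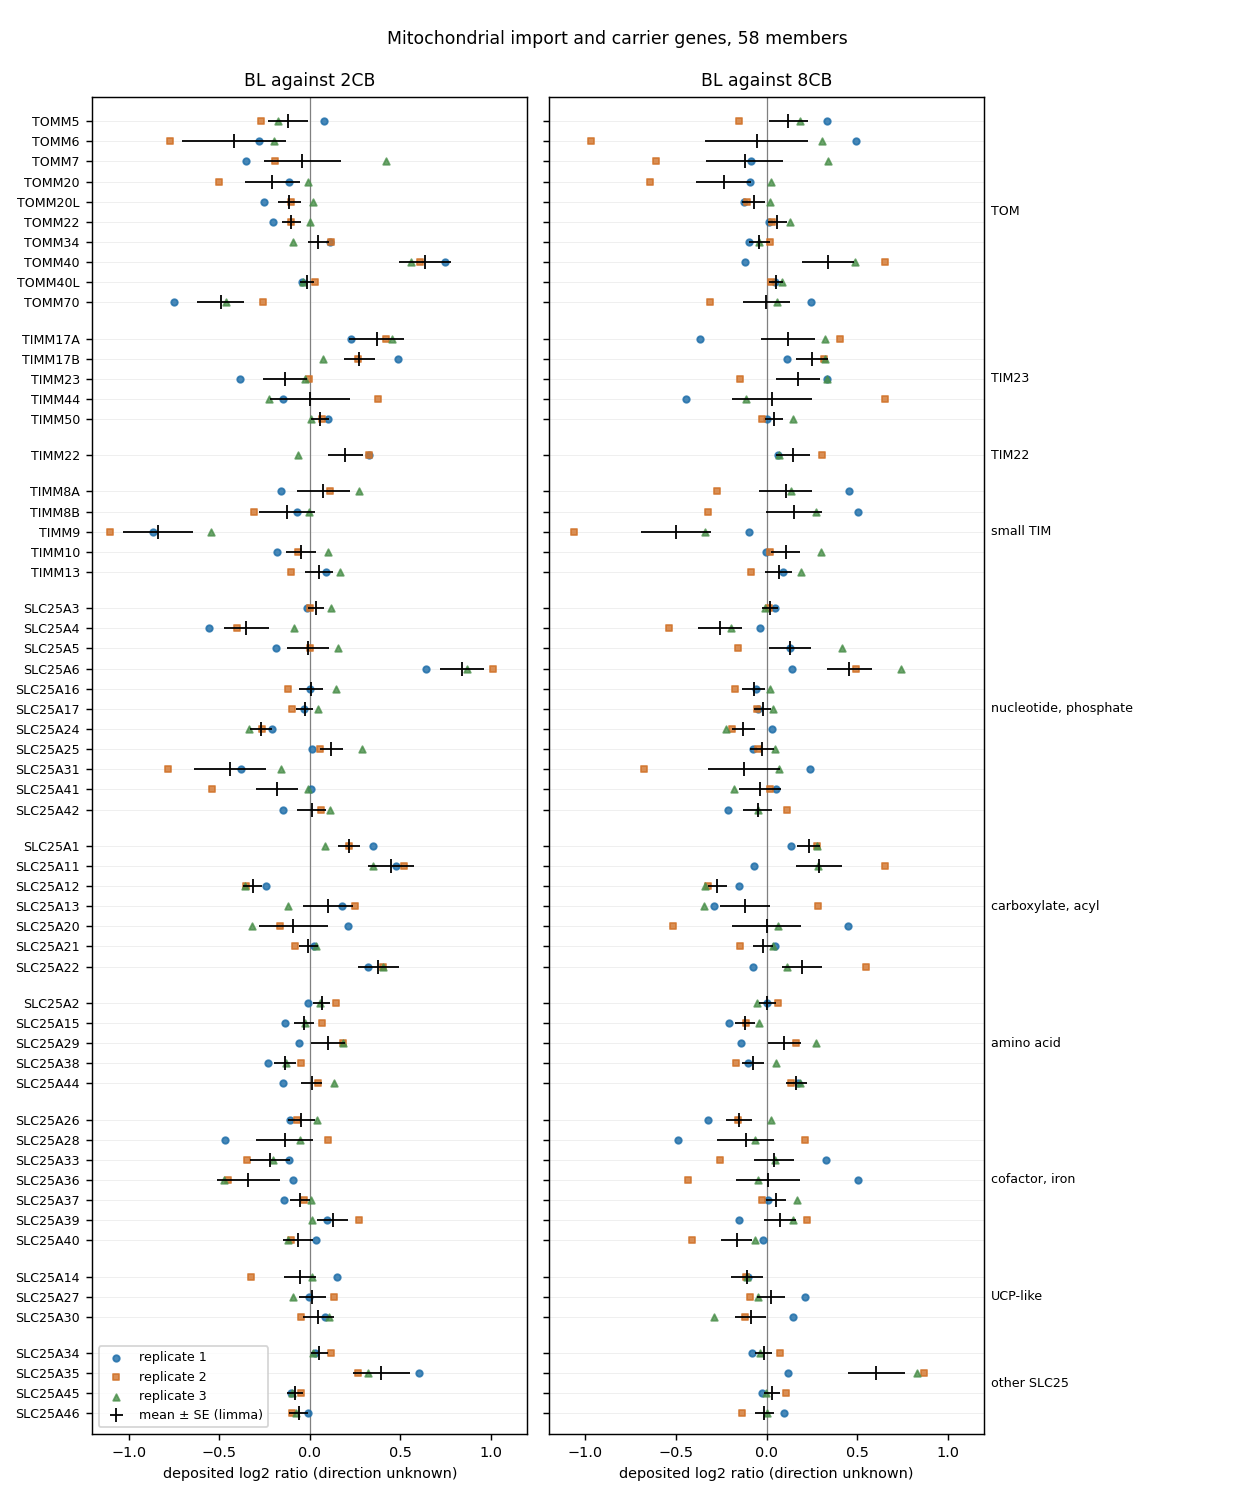
Deposited log2 ratios of the 58 members (rows, grouped by role) in BL against 2CB (left) and BL against 8CB (right). Coloured points are the averaged ratios of replicates 1 to 3 and black ticks are the mean ± SE from limma (n = 3). SLC25A6 and TIMM9 lie furthest from 0 on the left, at 0.84 and -0.84, and on the right the 3 replicates of many members straddle 0.

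In the TOM complex of the outer membrane, the channel and a receptor stood on opposite sides against 2CB. TOMM40, the channel subunit, lay at 0.75, 0.61 and 0.56 in replicates 1 to 3, with a mean of 0.64 ± 0.14 (log2, SE, n = 3). That is a 1.55-fold difference with an adjusted p of 0.13 in limma. TOMM70, the receptor that takes up carrier precursors, lay at -0.75, -0.26 and -0.46 (mean -0.49 ± 0.13, adjusted p = 0.16). Both genes kept their side in all 3 replicates. The count at an unadjusted p under 0.05 was 2 of 10 TOMM genes (20%; all genes: 18%), this same pair, so the share was near the background.

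The other TOM members were closer to 0 or less even. TOMM20, the presequence receptor, lay at -0.11, -0.50 and -0.01, so a single replicate set most of its mean of -0.21 ± 0.15. The central receptor TOMM22 averaged -0.10 ± 0.05, but its probes disagreed, at 0.13 and -0.33. Of the small subunits, TOMM6 lay at -0.28, -0.77 and -0.20, TOMM5 averaged -0.12 ± 0.11, and TOMM7 spread from -0.36 to 0.42. TOMM40L, a second gene for a channel protein, averaged -0.02 ± 0.04 and so did not follow TOMM40. In all, 2 of 10 TOMM means were above 0, and the median was -0.11. TOMM20L and the cytosolic co-chaperone TOMM34 averaged -0.11 ± 0.06 and 0.05 ± 0.06.

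In the TIM23 presequence translocase, both genes for the TIMM17 channel subunit were positive against 2CB. TIMM17B lay at 0.48, 0.27 and 0.07, with a mean of 0.27 ± 0.09 (adjusted p = 0.20). TIMM17A, measured by 5 probes whose means ran from 0.29 to 0.45, lay at 0.23, 0.42 and 0.45 (mean 0.37 ± 0.15, unadjusted p = 0.0509). Neither gene crossed 0 in any averaged replicate, but single arrays were less even. TIMM17A lay at 0.39, 0.54 and 0.92 with BL in Cy5, and at 0.06, 0.31 and -0.01 with 2CB in Cy5. The lowest array of TIMM17B was at -0.06, with 2CB in Cy5. TIMM23, the partner channel subunit, averaged -0.14 ± 0.12, with replicate 1 at -0.38 and the other two near 0. The receptor TIMM50 averaged 0.06 ± 0.05. TIMM44, which anchors the import motor, averaged 0.00 ± 0.22 because replicate 2 lay at 0.38 and the others at -0.15 and -0.23. TIMM22, the channel for carriers, lay at 0.33, 0.33 and -0.07, so 1 replicate was on the other side of 0.

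Among the small TIM chaperones of the intermembrane space, TIMM9 stood apart from its partners. It lay at -0.86, -1.10 and -0.55 against 2CB, with a mean of -0.84 ± 0.19 and a 1.79-fold difference (adjusted p = 0.13 in limma). The other 4 measured members averaged between -0.13 and 0.07. TIMM10, which forms a hexamer with TIMM9, averaged -0.05 ± 0.08, and its highest replicate was 0.10. TIMM8A, TIMM8B and TIMM13 averaged 0.07 ± 0.15, -0.13 ± 0.16 and 0.05 ± 0.07. TIMM9 rests on 1 probe, and its lowest and highest arrays were -1.30 and -0.45, so all 6 arrays against 2CB were negative.

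The adenine nucleotide translocases, which exchange ADP for ATP, lay on different sides against 2CB. SLC25A6 lay at 0.64, 1.01 and 0.87 against 2CB, with a mean of 0.84 ± 0.12, a 1.79-fold difference and the smallest adjusted p among members (0.0967). On single arrays it ran from 0.59 to 1.18, with both dye orientations alike. SLC25A4 was on the negative side, at -0.56, -0.40 and -0.09 (mean -0.35 ± 0.12, adjusted p = 0.23). SLC25A5 lay at -0.19, 0.00 and 0.16 and so on no side. SLC25A31, a translocase best known from testis, lay at -0.38, -0.78 and -0.16 (mean -0.44 ± 0.20), and its 3 probes agreed, at -0.38, -0.37 and -0.57. These genes have similar sequences, and whether their probes cross-hybridise was not tested. The phosphate carrier SLC25A3 averaged 0.03 ± 0.04, with a 95% interval from -0.07 to 0.14.

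Of the carriers that exchange ATP-Mg for phosphate, SLC25A24 lay at -0.21, -0.26 and -0.34 against 2CB. Its mean was -0.27 ± 0.06 (adjusted p = 0.13), and its 3 probes lay at -0.32, -0.22 and -0.27. The related SLC25A25 averaged 0.12 ± 0.06, with replicate 3 at 0.29 and the others near 0. SLC25A41 averaged -0.18 ± 0.12, a mean set by replicate 2 at -0.54. The swapped arrays of that replicate lay on different sides, at 0.22 with 2CB in Cy5 and -1.30 with BL in Cy5. The coenzyme A carrier SLC25A42, the peroxisomal carrier SLC25A17 and SLC25A16 averaged 0.01 ± 0.08, -0.03 ± 0.05 and 0.01 ± 0.07.

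The carboxylate and aspartate/glutamate carriers, several of which serve the malate-aspartate shuttle, held 4 of 7 members at an unadjusted p under 0.05 against 2CB (57.1%; all genes: 18%), which was not tested. One of the 4, SLC25A22, was positive on average in one dye orientation only. SLC25A11, the carrier of oxoglutarate and malate in that shuttle, lay at 0.48, 0.52 and 0.35 (mean 0.45 ± 0.13, adjusted p = 0.17). SLC25A12, which exchanges aspartate for glutamate in the same shuttle, lay on the other side at -0.24, -0.35 and -0.36. Its mean was -0.32 ± 0.05 (adjusted p = 0.10), and its probes differed in size, at -0.09 and -0.54.

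The citrate carrier SLC25A1 lay at 0.35, 0.22 and 0.08 (mean 0.22 ± 0.06), with one probe at 0.38 and the other at 0.05. It averaged 0.36 on arrays with BL in Cy5 and 0.08 on arrays with 2CB in Cy5. The glutamate carrier SLC25A22 averaged 0.38 ± 0.11, but its arrays split by dye orientation. With BL in Cy5 they lay at 0.82, 0.69 and 0.87, and with 2CB in Cy5 at -0.17, 0.11 and -0.06. Its positive mean thus came from the arrays of one orientation. SLC25A13, the second aspartate/glutamate carrier, averaged 0.10 ± 0.14, and SLC25A20, which brings acylcarnitine in for fatty acid oxidation, averaged -0.09 ± 0.19 with replicates from -0.32 to 0.21. The oxodicarboxylate carrier SLC25A21 averaged -0.01 ± 0.05.

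**Figure D2:**
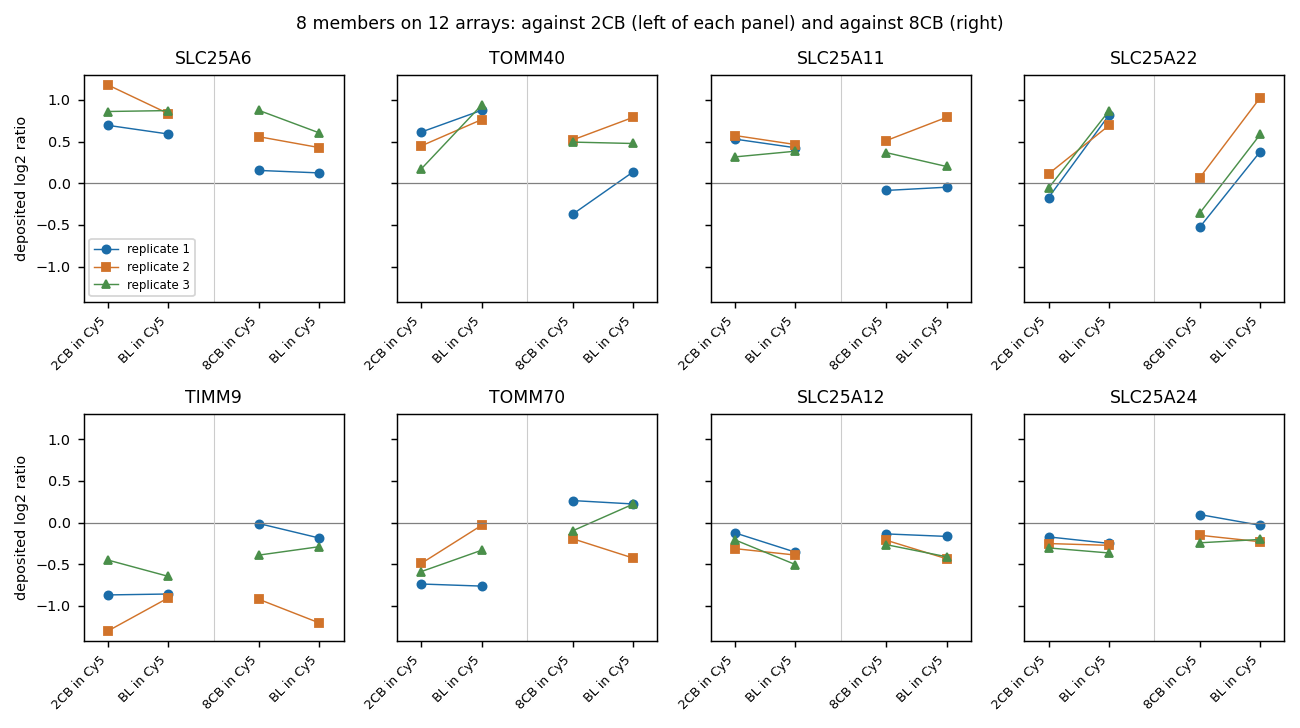
Deposited log2 ratios of 8 members on the 12 arrays, with BL against 2CB left and BL against 8CB right of the thin line in each panel. Each line joins the 2 dye orientations of a replicate number. SLC25A6, TIMM9 and SLC25A24 have like values in both orientations, whereas all arrays of SLC25A22 with BL in Cy5 are above those with the arrested class in Cy5.

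The amino acid carriers, the cofactor and iron carriers and the carriers like uncoupling proteins held 0 of 15 members at an unadjusted p under 0.05 against 2CB (all genes: 18%). The glycine carrier SLC25A38 averaged -0.14 ± 0.06, with its 3 probes spread over -0.43, -0.13 and 0.15. The ornithine carrier SLC25A2 and the carrier of basic amino acids SLC25A29 averaged 0.06 ± 0.05 and 0.10 ± 0.09. The pyrimidine nucleotide carriers SLC25A33 and SLC25A36 averaged -0.22 ± 0.11 and -0.34 ± 0.18 and were negative in all 3 replicates. SLC25A39, a glutathione carrier, averaged 0.13 ± 0.09. The iron importers SLC25A37 and SLC25A28 averaged -0.06 ± 0.06 and -0.14 ± 0.16. SLC25A26, which imports S-adenosylmethionine, averaged -0.05 ± 0.07 over 7 probes. Of the less characterised carriers, SLC25A35 lay at 0.60, 0.26 and 0.32 (mean 0.39 ± 0.16, unadjusted p = 0.0465). Its arrays split by dye as well, with 0.87, 0.48 and 0.94 where BL was in Cy5, and 0.33, 0.04 and -0.30 where 2CB was in Cy5. SLC25A34, SLC25A45 and SLC25A46 averaged between -0.08 and 0.05.

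The 25 members with several probes showed how far a gene's value depends on its probe. Probe means lay on both sides of 0 for 13 of the 25 against 2CB (52%; all such genes: 51.4%) and for 10 of 25 against 8CB (40%; all such genes: 56.5%). The 5 probes of TIMM17A and the 3 probes each of SLC25A31 and SLC25A24 lay on one side against 2CB. The other 33 members had 1 probe, among them SLC25A6, TOMM40, TOMM70 and TIMM9, so their values have no such check.

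**Figure D3:**
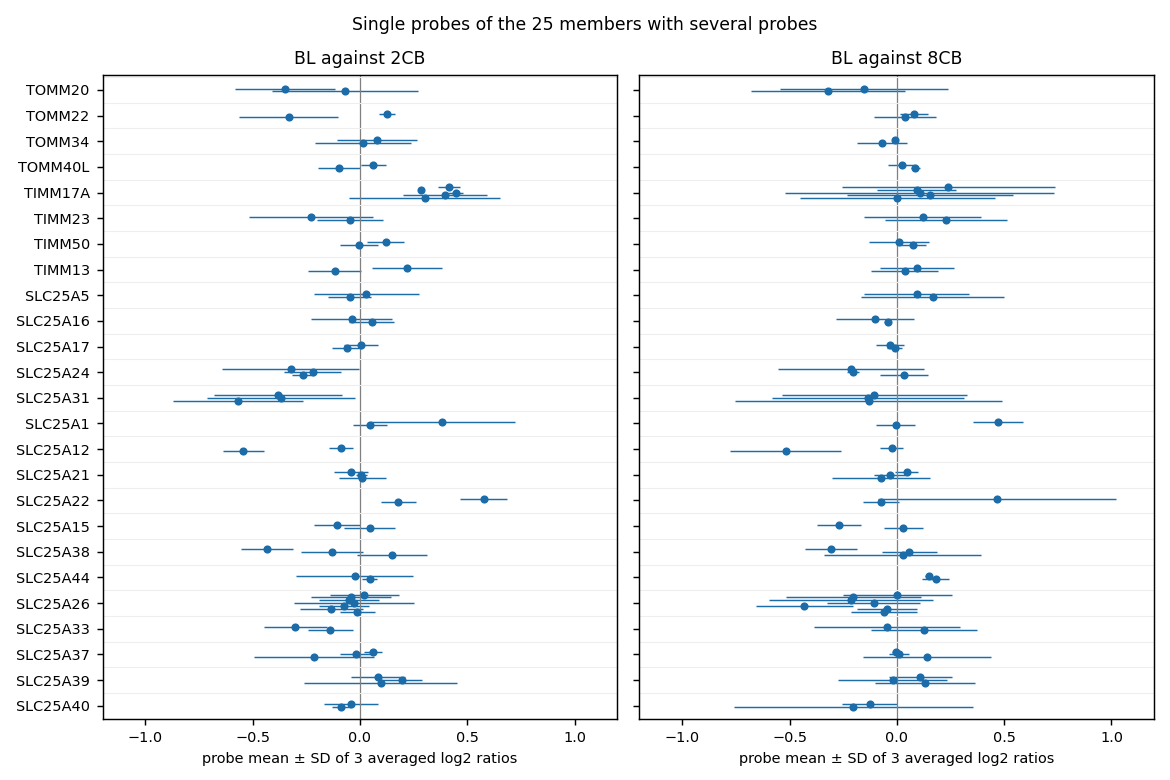
Mean ± SD over 3 averaged log2 ratios (n = 3) for each probe of the 25 members with several probes, in BL against 2CB (left) and BL against 8CB (right). The probes of TIMM17A cluster between 0.29 and 0.45 on the left, and those of SLC25A12 stand apart, at -0.09 and -0.54.

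For BL against 8CB, the question concerns sisters that went on dividing for a time before arrest. SLC25A35, SLC25A6 and TOMM40 had the largest positive means, and TIMM9, SLC25A12 and SLC25A4 the largest negative ones. Limma called 0 members and 0 of all genes (percent called: 0) at an adjusted p under 0.05. Among the 58 members, 7 (12.1%) had an unadjusted p under 0.05, while the share of all genes was 11%. Of these, 5 were on the positive side (all genes: 5.61%) and 2 on the negative side (all genes: 5.41%). One side was kept in 3 of 3 replicates by 14 members (24.1%), against 29.2% of all genes, with 8 positive (13.8%; all genes: 15.6%) and 6 negative (10.3%; all genes: 13.7%). Means above 0 numbered 30 of 58 (51.7%; all genes: 52.6%). The members' count depended on single replicates, with 14 (24.1%; all genes: 14.3%) reaching an unadjusted p under 0.05 without replicate 1, and 2 (3.45%; all genes: 4.5%) without replicate 3. Across the 58 members the averaged ratios of replicates 1 and 2 correlated at -0.38, and those of 2 and 3 at 0.39. The random-block fit called 2 members (3.45%; all genes: 1.81%), SLC25A6 and SLC25A12, and the fixed block gave 11 members at an unadjusted p under 0.05 (19%; all genes in that fit: 17%). Both comparisons use BL, so their values for a member are not independent.

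SLC25A12 had the smallest p among members against 8CB. It lay at -0.15, -0.32 and -0.34, with a mean of -0.27 ± 0.05 (adjusted p = 0.19), and all 6 arrays were negative. Its probes again differed in size, at -0.02 and -0.52. SLC25A6 lay at 0.14, 0.49 and 0.74 (mean 0.46 ± 0.12, a 1.37-fold difference, adjusted p = 0.27). All 6 arrays of SLC25A6 were positive, and replicate 1 was well below the other two.

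SLC25A35 lay at 0.12, 0.87 and 0.83 against 8CB (mean 0.61 ± 0.16, adjusted p = 0.26). The swapped arrays of its replicate 1 lay on different sides, at -0.26 with 8CB in Cy5 and 0.50 with BL in Cy5. SLC25A1 was more even as averaged, at 0.14, 0.28 and 0.28 (mean 0.23 ± 0.06), although one probe carried it (0.47, against -0.01 for the other). On single arrays SLC25A1 ran from -0.05 to 0.42. SLC25A44, a carrier of branched-chain amino acids, lay at 0.17, 0.14 and 0.18 (mean 0.16 ± 0.06), with both probes at 0.15 and 0.18. Its single arrays were less even, at -0.06, 0.04 and 0.30 with BL in Cy5 and at 0.40, 0.23 and 0.07 with 8CB in Cy5. TIMM17B averaged 0.25 ± 0.09 and was positive in all 3 averaged replicates, although 1 of its 6 arrays was negative, at -0.05.

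TIMM9 was again on the negative side, at -0.10, -1.06 and -0.34 against 8CB (mean -0.50 ± 0.19, adjusted p = 0.43), but replicate 1 was near 0. TOMM40 lay at -0.12, 0.66 and 0.49 (mean 0.34 ± 0.14, unadjusted p = 0.056), with replicate 1 on the other side. TOMM70 lay at 0.24, -0.31 and 0.06, and its mean was -0.00 ± 0.13, with a 95% interval from -0.32 to 0.32. SLC25A11 showed the same kind of spread, at -0.07, 0.65 and 0.28. TOMM6 had the widest range, at 0.49, -0.97 and 0.31. SLC25A20 lay at 0.45, -0.51 and 0.06, and SLC25A36 at 0.50, -0.43 and -0.05, so neither had a side.

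The remaining translocases and channels against 8CB did not separate from 0. SLC25A4 averaged -0.26 ± 0.12 and was negative in all 3 averaged replicates (unadjusted p = 0.0791), with replicate 1 at -0.04. The swapped arrays of that replicate lay on different sides, at 0.18 with 8CB in Cy5 and -0.26 with BL in Cy5. SLC25A5, SLC25A31 and SLC25A3 averaged 0.13 ± 0.12, -0.12 ± 0.20 and 0.02 ± 0.04. TIMM23 averaged 0.17 ± 0.12, TIMM22 0.15 ± 0.10, TIMM44 0.03 ± 0.22 and TIMM50 0.04 ± 0.05. Of the receptors, TOMM20 and TOMM22 averaged -0.24 ± 0.15 and 0.06 ± 0.05. The small chaperones TIMM8B and TIMM10 averaged 0.15 ± 0.16 and 0.10 ± 0.08. SLC25A24 averaged -0.13 ± 0.06, with replicate 1 at 0.03, and SLC25A37 averaged 0.05 ± 0.06.

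Among cofactor and amino acid carriers against 8CB, the glutathione carrier SLC25A40 averaged -0.17 ± 0.08, the ornithine carrier SLC25A15 -0.12 ± 0.06 and SLC25A26 -0.15 ± 0.07. SLC25A40 lay at -0.02, -0.41 and -0.06 in replicates 1 to 3. The swapped arrays of its replicate 2 differed, at -0.83 with 8CB in Cy5 and 0.003 with BL in Cy5. SLC25A38 averaged -0.07 ± 0.06. The uncoupling-like SLC25A14 had nearly equal averaged replicates, at -0.10, -0.11 and -0.11. Its single arrays were less even, at -0.04, -0.10 and -0.24 with 8CB in Cy5 and at -0.16, -0.13 and 0.02 with BL in Cy5. The unadjusted p of SLC25A14 was 0.27 because the spread is shared with BL against 2CB, where its averaged replicates ran from -0.33 to 0.15. SLC25A27 and SLC25A30 averaged 0.02 ± 0.08 and -0.09 ± 0.09. Outside these groups, SLC25A34, SLC25A45 and TOMM40L averaged -0.01 ± 0.05, 0.03 ± 0.04 and 0.05 ± 0.04.

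Since 2CB and 8CB share no array, they were compared by subtracting each member's value against 8CB from its value against 2CB. Limma called 0 members and 0 of all genes at an adjusted p under 0.05. At an unadjusted p under 0.05 stood 1 of 58 members (1.72%), against 4.25% of all genes, of which 1.91% were positive and 2.33% negative. It was TOMM70, at -0.49 ± 0.18 (adjusted p = 0.93), with 2 of 3 replicates on that side. SLC25A6 had a difference of 0.38 ± 0.17 and was on the positive side in 3 of 3. One side was kept in 3 of 3 by 20 members (34.5%; all genes: 33.7%), 7 of them positive (12.1%; all genes: 17.6%) and 13 negative (22.4%; all genes: 16.2%). A difference above 0 was found for 26 members (44.8%; all genes: 51%). Without replicate 2 the count at an unadjusted p under 0.05 was 9 members (15.5%; all genes: 8.03%). Without replicate 3 it was 0 (all genes: 1.65%), and the fixed replicate block gave 4 (6.9%; all genes: 9.4%).

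Reading the sign from the labelled dyes instead, so that every ratio is BL over the arrested class, changed which members were called. Adjusted p-values under 0.05 were then reached by 3 of 58 members against 2CB (5.17%; all genes: 5.96%) and 2 against 8CB (3.45%; all genes: 2.94%). SLC25A22 lay at 0.42 ± 0.05 over 2CB and 0.47 ± 0.05 over 8CB (adjusted p = 0.012 and 0.013 in limma). SLC25A13 lay at 0.38 ± 0.06 over 2CB and 0.34 ± 0.06 over 8CB (adjusted p = 0.025 and 0.042). SLC25A34 lay at -0.22 ± 0.05 over 2CB (adjusted p = 0.046). If the deposited ratios were already turned, these values measure the gap between dye orientations instead. SLC25A6 and TIMM9 were near 0 when turned, at -0.07 ± 0.05 and 0.04 ± 0.06 over 2CB. TOMM40 was positive under either reading against 2CB, at 0.22 ± 0.07 when turned (adjusted p = 0.090). Its deposited arrays lay at 0.88, 0.77 and 0.94 with BL in Cy5, and at 0.61, 0.45 and 0.17 with 2CB in Cy5. If the deposited ratios were already turned, its turned value too measures the gap between dye orientations.

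**Figure D4:**
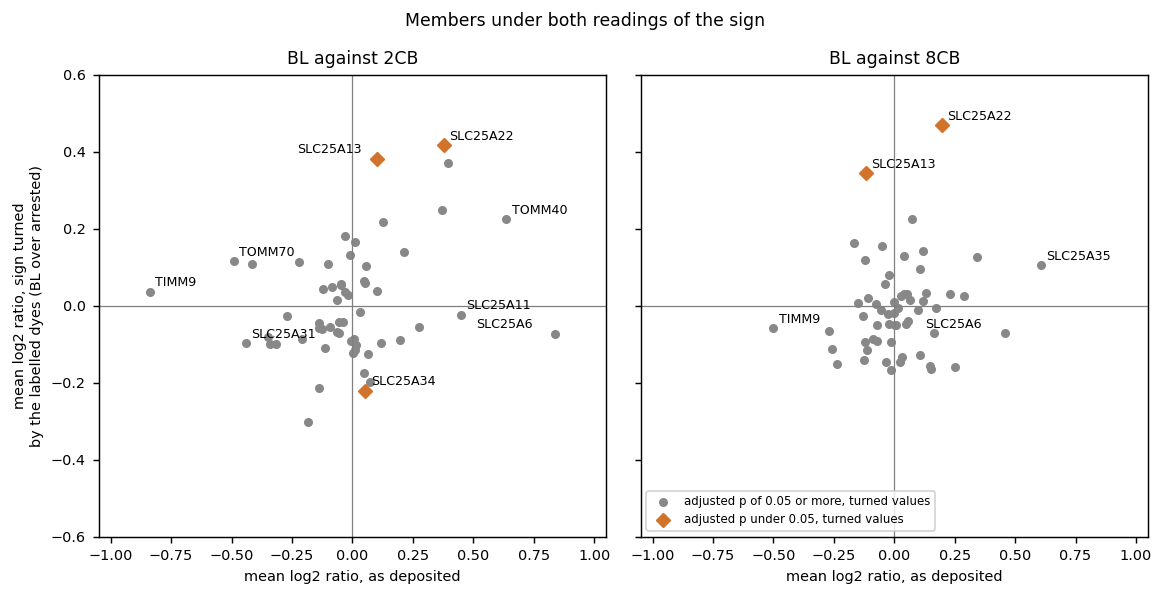
Mean log2 ratio of the 58 members as deposited (horizontal axis) and with signs turned after the labelled dyes (vertical axis), for BL against 2CB (left) and BL against 8CB (right). Diamonds had an adjusted p under 0.05 for the turned values. SLC25A6 and TIMM9 are far from 0 only on the horizontal axis, and SLC25A22 and SLC25A13 have the largest turned values in both panels.

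Genes that work with these members but fall outside the rule were also mixed. Of 23 listed import partners 20 were measured, and 5 reached an unadjusted p under 0.05 against 2CB (25%; all genes: 18%), of which 3 were positive and 2 negative. Their smallest p-values belonged to GRPEL1, the nucleotide exchange factor of the import motor, at 0.29 ± 0.08, and AGK, a kinase that is part of the TIM22 complex, at -0.41 ± 0.11 (adjusted p = 0.17 for both). Against 8CB, 3 of 20 (15%; all genes: 11%) did so, with the inner membrane insertase OXA1L at 0.24 ± 0.08 and SAMM50, which inserts barrel proteins into the outer membrane, at 0.23 ± 0.09. The mitochondrial chaperone HSPA9, the motor itself, averaged -0.01 ± 0.08 against 2CB and 0.11 ± 0.08 against 8CB.

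Of 10 other mitochondrial carriers and channels, 1 reached an unadjusted p under 0.05 against 2CB (10%; all genes: 18%) and 3 against 8CB (30%; all genes: 11%). MPC1, a subunit of the pyruvate carrier, lay at -0.34 ± 0.10 against 2CB and -0.43 ± 0.10 against 8CB (adjusted p = 0.17 and 0.22) and was negative in 3 of 3 replicates in each. Its partner MPC2 averaged -0.27 ± 0.23 and 0.07 ± 0.23. The outer membrane channel VDAC2 averaged 0.28 ± 0.12 against 2CB and 0.32 ± 0.12 against 8CB, and VDAC3 averaged -0.16 ± 0.07 and 0.20 ± 0.07. Between the arrested classes, VDAC3 (-0.36 ± 0.10), AGK (-0.46 ± 0.16) and PMPCA (0.16 ± 0.06), a subunit of the peptidase that removes presequences, were on one side in 3 of 3 replicates, each with an adjusted p of 0.93 in limma. MPC2 differed by -0.34 ± 0.33.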

How the data were processed

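The values the authors deposited are log ratios, 1 for each probe on an array, read as log2 because the submitters' processing notes name limma. Log base, background correction and normalization were not given in the sources used here. Deposited columns had medians from -0.004 to 0.010 and were thus centred. Columns with an arrested class in Cy5 mostly hold 9 significant digits and those with BL in Cy5 hold 6. The table has 43795 rows. Left out were 1 row lacking a value, 1 that is no numbered probe, and 22003 probes without a symbol in the annotation table. Of the probes, 21790 had 1 symbol and 0 had several. Older symbols of 1524 probes were updated with RefSeq's gene names (ARS-UCD2.0). Probe values were averaged per gene and array, and the swapped arrays of a replicate number were averaged as deposited. The 6 ratios entered limma 3.58.1 (lmFit, then eBayes, in R 4.3.3), where each comparison had its own coefficient and both gave one estimate of spread. Two-sided p-values were adjusted by the Benjamini-Hochberg method over all 15216 genes with a threshold of 0.05. The fit was tested on simulated data. The replicate numbers pair the comparisons: deviations of same-numbered ratios correlated at 0.28, 0.39 and 0.37, each best with its own number. The labels call the pools independent, and precision is limited by the number of pools, 3 per class.

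The members, lists and the averaging were chosen with earlier results of these data known. Named genes per comparison were the 3 members with the smallest p in each role group, 14 core genes always given, and 2 per related list. The remaining members, SLC25A22 and SLC25A13 among them, and HSPA9 were added after their values were seen, so that no member is left out. SLC25A34 was named this way against 8CB only, and its values against 2CB were added after they were seen. Alternatives were both replicate blocks, the turned sign, each dye orientation, separate fits, quantile normalization, scaling, the median of probes, a filter on small ratios, and each replicate left out. A sign change was counted as such only for a value with an unadjusted p under 0.05 or an alternative with an adjusted one under 0.05. Plots came from matplotlib 3.10.9 under Python 3.11.15.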

Additional observations from a re-analysis of the deposited data

How the results depend on the processing

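Genes called at an adjusted p under 0.05 numbered 0 in every comparison. Against 2CB the count became 965 with the random replicate block, 907 with signs turned after the labelled dyes and 1612 with only the arrays that had BL in Cy5. Against 8CB these counts were 276, 447 and 400, and 16 genes were called after quantile normalization and 1 after scaling, none of them members. Under the other alternatives run, single replicates left out included, the count stayed at 0. Members at an unadjusted p under 0.05 numbered 12 against 2CB, 7 against 8CB and 1 between arrested classes. Their shares were 20.7%, 12.1% and 1.72%, against 18%, 11% and 4.25% of all genes. With the fixed replicate block the counts were 19 (32.8%), 11 (19%) and 4 (6.9%), against 25.9%, 17% and 9.4% of all genes. With only BL in Cy5 they were 20 (34.5%) against 2CB and 12 (20.7%) against 8CB, where all genes had 30.8% and 21.9%. Between arrested classes the count was 2 (3.45%) with the random replicate block and 0 with the sign turned, against 5.53% and 0.973% of all genes. It was 2 (3.45%) both with only the arrested class in Cy5 and with the median of probes, against 3.82% and 4.32% of all genes. Leaving out 1 replicate gave 9 to 13 members against 2CB (15.5% to 22.4%), where all genes had 9.75% to 17.5%. It gave 2 to 14 against 8CB (3.45% to 24.1%), where all genes had 4.5% to 14.3%. Between arrested classes it gave 0 to 9 (0% to 15.5%), where all genes had 1.65% to 8.03%. With the sign turned, the value against 2CB was -0.024 for SLC25A11, -0.073 for SLC25A6, -0.0565 for TIMM17B, 0.0355 for TIMM9, 0.115 for TOMM70 and -0.22 for SLC25A34. Against 8CB it was -0.0705 for SLC25A44, -0.0719 for SLC25A6, -0.16 for TIMM17B and 0.34 for SLC25A13. SLC25A22 lay at -0.0393 against 2CB with only the arrested class in Cy5. The cause was not tested. Intensities were not used here, so how far low signal limits a member is unknown.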

Other observations

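3 further genes carry a TIMM or SLC25 name today but stood under older symbols in the annotation table, so the rule did not take them. SLC25A51, the mitochondrial carrier of NAD+, was listed as MCART1 and measured by 2 probes. Against 8CB it lay at -0.22, -0.34 and -0.19 in replicates 1 to 3, with a mean of -0.25 ± 0.05 (log2, SE, n = 3; unadjusted p = 0.0022, adjusted p = 0.19 in limma). All 3 replicates were on one side there, and against 2CB the mean was -0.06 ± 0.05. TIMM21, which links the TOM and TIM23 complexes, lay at -0.31, -0.37 and -0.02 against 2CB (mean -0.23 ± 0.14) and at 0.11, -0.58 and -0.10 against 8CB (mean -0.19 ± 0.14). TIMM10B, a small TIM chaperone of the TIM22 complex, averaged 0.07 ± 0.05 against 2CB and -0.01 ± 0.05 against 8CB.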
